A study of Homo sapiens with 4 samples.

Results

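The genes described here are 9 transcription and splicing regulators, grouped under the heading of breast lineage. Its members are the transcription factors FOXA1, TFAP2A, TFAP2C, GATA3, ELF3, GRHL2 and SPDEF, the splicing factor ESRP1 and the zinc finger cofactor ZNF521. They were chosen by name, with the difference between RB-1 and DMSO in these same libraries already known, and all 9 were found among 20263 genes of the count table. Their values in this comparison are therefore a description, with no test read from them. RNA came from MDA-MB-231, an established human line of triple-negative breast cancer with a mesenchymal-like phenotype. Cells were kept for 24 h either with the solvent DMSO (2 libraries) or with RB-1 (2 libraries), a compound known here by its code name, which the series title names a derivative of ribociclib. All cells shared DMEM with fetal bovine serum, and the labels give no dose of RB-1. Whether replicate libraries were grown as separate cultures is not stated in the labels, so errors and p-values reflect only how these 4 samples vary, and part of that may be technical.

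Luminal breast cells are specified by a small circuit of transcription factors. FOXA1 is a pioneer factor that opens chromatin for the oestrogen receptor, GATA3 is a zinc finger factor of the luminal lineage, and the AP-2 factors TFAP2A and TFAP2C bind GC-rich elements at many of the same genes. ELF3 and SPDEF are ETS factors of epithelial and secretory cells, GRHL2 is a grainyhead-like factor that maintains junction genes, and ESRP1 directs the epithelial pattern of alternative splicing. ZNF521 is a cofactor best known from immature blood and neural cells, where it opposes early B-cell factor. MDA-MB-231 is a line in which much of the epithelial programme is low.

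The label of the cell line was checked against its markers. Vimentin (VIM), AXL and moesin (MSN) had mean levels of 3903, 1735 and 2826 CPM (counts scaled to library size with the TMM factors of edgeR) in DMSO. CD44, EGFR and CAV1 had 532, 1006 and 602 CPM. The E-cadherin gene CDH1 had 2, 0, 2 and 2 counts and the oestrogen receptor gene ESR1 had 23, 7, 4 and 5 counts in DMSO 1, DMSO 2, RB-1 1 and RB-1 2. EPCAM (9.50 CPM), CLDN7 (4.60 CPM), CLDN3 (2.14 CPM) and PGR (1.62 CPM) were low in DMSO. Library totals ran from 34122874 to 37754168 counts. The most abundant gene, the mitochondrial MT-CO1, took 2.24% and 5.02% of the counts in the DMSO libraries and 1.21% and 1.76% in the RB-1 libraries. Of 13612 genes that passed the count filter, 1737 were higher and 2189 lower in RB-1 at an adjusted p under 0.05 (edgeR quasi-likelihood test, Benjamini-Hochberg). These counts were 768 and 1361 when DMSO replicate 1 was left out. Leaving out DMSO replicate 2 gave 522 and 1302, and leaving out RB-1 replicate 1 gave 655 and 1065. The median log2 fold change over all tested genes was 0.01. It was 0.42 among genes with a short exon length (under 3196 bases) and -0.42 among genes with a long one (over 7498 bases). The part of this length trend in the values below was not tested, except where a value corrected for length and GC content is given.

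Of the 9 regulators, 8 passed the count filter. ZNF521, TFAP2C, FOXA1 and GATA3 were called lower in RB-1, ELF3 was called higher, and TFAP2A, SPDEF and ESRP1 were not called. Over all tested genes 28.8% were called, 12.8% higher and 16.1% lower. As the 9 were chosen on this contrast, nothing is read from these shares. The 2 groups of libraries did not overlap for 7 of the 8 regulators, as for 69.7% of all tested genes. RB-1 was lower in 5 of the 7 (34.3% of all tested genes) and higher in 2 (35.3%). TFAP2C and ZNF521 passed the filter through the DMSO libraries alone, where they were high. In whole-culture RNA, fewer cells that carry a transcript and less of it per cell cannot be told apart.

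**Figure D1:**
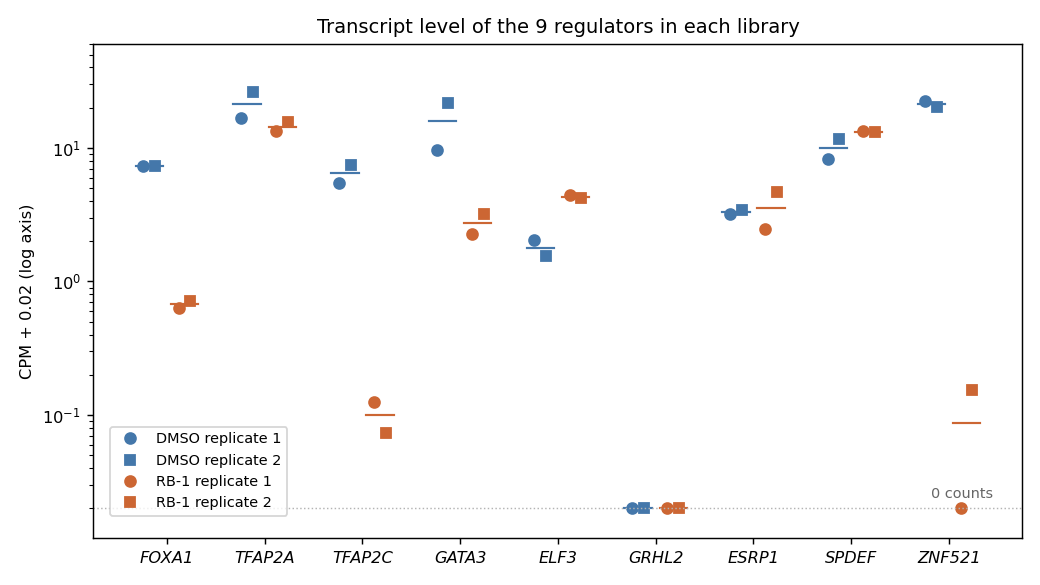
Level of each regulator in each library, as CPM plus 0.02 on a log axis. Circles and squares are replicates 1 and 2, short lines are group means, and the dotted line marks 0 counts. ZNF521 and TFAP2C lie near the bottom in both RB-1 libraries, and GRHL2 is at 0 in all 4.

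ZNF521 had the largest fitted difference of the 9. It had 777 and 660 counts in DMSO and 0 and 5 counts in RB-1, which is 22.3 and 20.1 CPM against 0 and 0.134 CPM. Both DMSO libraries were at least at 20.1 CPM, while the RB-1 libraries together held 5 counts. The log2 fold change was -8.24 ± 0.65 (SE). Every SE given here is the size of the fold change divided by the square root of the F statistic of the edgeR test. The ratio of scaled counts, DMSO over RB-1, was 319, with an exact 95% interval of 137 to 985 that covers counting error only. On the scale of CPM per kilobase of exon, its mean level went from the 40.3rd percentile of tested genes in DMSO to the 0.588th in RB-1.

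TFAP2C encodes AP-2 gamma, the AP-2 factor most associated with luminal breast cells. Its counts were 191 and 242 in DMSO and 4 and 2 in RB-1, which is 5.47 and 7.38 CPM against 0.106 and 0.0534 CPM. The groups lay far apart and the RB-1 libraries were within a few counts of 0. The log2 fold change was -6.27 ± 0.54 (SE), and the ratio of scaled counts was 80.2 (exact 95% interval 36.5 to 220, counting error only). With 6 counts of TFAP2C and 5 of ZNF521 left in RB-1, these SEs are about as large as counting error or smaller. They are therefore not a full measure of error for these genes. TFAP2A, which encodes AP-2 alpha, showed a smaller difference. Its CPM was 16.6 and 26.3 in DMSO and 13.2 and 15.5 in RB-1, so the groups did not overlap but DMSO replicate 1 lay close to RB-1 replicate 2. The log2 fold change of TFAP2A was -0.58 ± 0.32 (SE), and without DMSO replicate 2 it was -0.19. TFAP2A shares 11.4% and 5.29% of its exon bases with the antisense genes TFAP2A-AS2 and TFAP2A-AS1. No source used here says whether counting was strand-specific, and neither antisense gene is in the count table. How much of the TFAP2A count could come from them is therefore not known.

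FOXA1 was even within groups. It had 255 and 240 counts in DMSO and 23 and 26 in RB-1, which is 7.31 and 7.32 CPM against 0.609 and 0.694 CPM. The log2 fold change was -3.48 ± 0.38 (SE), a ratio of scaled counts of 11.2 (exact 95% interval 8.36 to 15.4, counting error only). With 1 library left out it stayed between -3.58 and -3.39.

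GATA3 was lower in RB-1 too, with a wide spread in DMSO. It had 338 and 716 counts in DMSO and 85 and 119 in RB-1, which is 9.69 and 21.8 CPM against 2.25 and 3.18 CPM. DMSO replicate 2 was well above DMSO replicate 1, and both lay above both RB-1 libraries. The log2 fold change was -2.54 ± 0.44 (SE), or 5.80-fold. It was -3.01 without DMSO replicate 1 and -1.81 without DMSO replicate 2. Leaving out RB-1 replicate 1 gave a log2 fold change of -2.31, and GATA3 was then not called.

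The ETS factors were on the other side of 0. ELF3 had 70 and 50 counts in DMSO and 166 and 156 in RB-1, which is 2.01 and 1.53 CPM against 4.40 and 4.17 CPM. Both RB-1 libraries lay above both DMSO libraries, and the log2 fold change was 1.27 ± 0.37 (SE), or 2.42-fold. The call was lost with any 1 of the 4 libraries left out. The log2 fold change was then 1.49 and 1.11 without DMSO replicates 1 and 2, and 1.24 and 1.32 without RB-1 replicates 1 and 2. ELF3 shares 9.23% of its exon bases with the antisense gene ELF3-AS1, and 9.23% with AL691482.3, a gene annotated on the same strand as ELF3. SPDEF had 8.25 and 11.6 CPM in DMSO and 13.3 and 13.1 CPM in RB-1. The RB-1 libraries were nearly equal and both above DMSO, with a log2 fold change of 0.41 ± 0.31 (SE). With the correction for length and GC content the sign of SPDEF turned, to -0.21.

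ESRP1, an RNA-binding protein that keeps epithelial exon choices, had 111 and 111 counts in DMSO and 92 and 174 in RB-1. This is 3.18 and 3.39 CPM against 2.44 and 4.65 CPM, so the RB-1 libraries lay on both sides of the DMSO libraries. The log2 fold change was 0.11 ± 0.40 (SE). It was 0.50 without RB-1 replicate 1 and -0.43 without RB-1 replicate 2. GRHL2 had 0 counts in all 4 libraries and could not be tested. A floor of 3 counts allows up to 0.0860 and 0.0915 CPM in the DMSO libraries and up to 0.0795 and 0.0801 CPM in the RB-1 libraries.

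Levels of different genes were compared per kilobase of annotated exon. In DMSO the order of mean levels was SPDEF (5.18 CPM per kilobase), GATA3 (4.59), ZNF521 (3.41), TFAP2A (2.59), TFAP2C (2.14), FOXA1 (1.84), ESRP1 (0.674) and ELF3 (0.246). SPDEF and GATA3 overlapped between libraries in DMSO, as did GATA3 and ZNF521, TFAP2A and TFAP2C, and TFAP2C and FOXA1. The other neighbours in the order did not overlap, although ZNF521 and TFAP2A came within 3.24 and 3.18 CPM per kilobase of each other. In RB-1 the order was SPDEF (6.89 CPM per kilobase), TFAP2A (1.74), GATA3 (0.790), ESRP1 (0.727), ELF3 (0.595), FOXA1 (0.164), TFAP2C (0.0265) and ZNF521 (0.0107). There GATA3 overlapped with ESRP1, ESRP1 with ELF3, and TFAP2C with ZNF521. By mean level SPDEF was the highest of the 9 in both groups, although GATA3 (6.36) lay above SPDEF (6.04) in DMSO replicate 2. ZNF521 went by mean level from the third place to the lowest of the 8 that had counts.

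**Figure D2:**
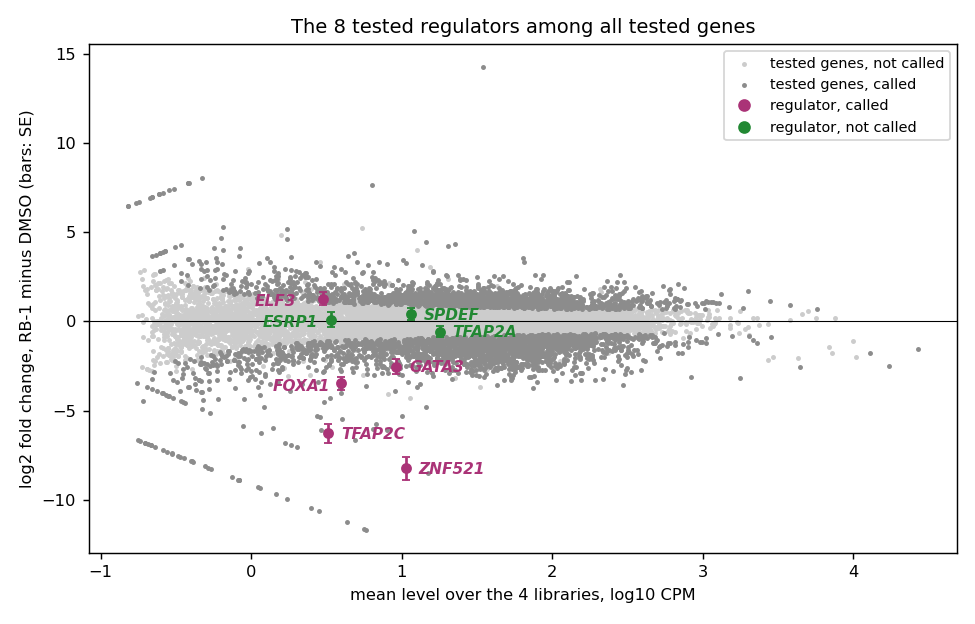
Log2 fold change, RB-1 minus DMSO, against mean level (log10 CPM over the 4 libraries) for all 13612 tested genes, with the 8 tested regulators in colour and bars for the SE. ZNF521 (-8.24) and TFAP2C (-6.27) lie below most genes of similar level, and SPDEF, TFAP2A and ESRP1 lie within the band of genes that were not called.

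The exon lengths of the regulators were as follows. TFAP2C (3005 bases) and SPDEF (1914 bases) have a short exon length, under 3196 bases, where the median log2 fold change was 0.42. FOXA1, GATA3 and ESRP1 have 3982, 3436 and 4875 exon bases, under the median of 5040. ELF3 and ZNF521 have 7191 and 6223, and TFAP2A, with 8274, is the one long gene of the set. With the correction for length and GC content the log2 fold changes were -8.11 for ZNF521, -6.70 for TFAP2C, -3.81 for FOXA1, -2.93 for GATA3 and 1.22 for ELF3. The regulators that were not called were at -0.42 (TFAP2A), -0.21 (SPDEF) and 0.29 (ESRP1) with it.

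**Figure D3:**
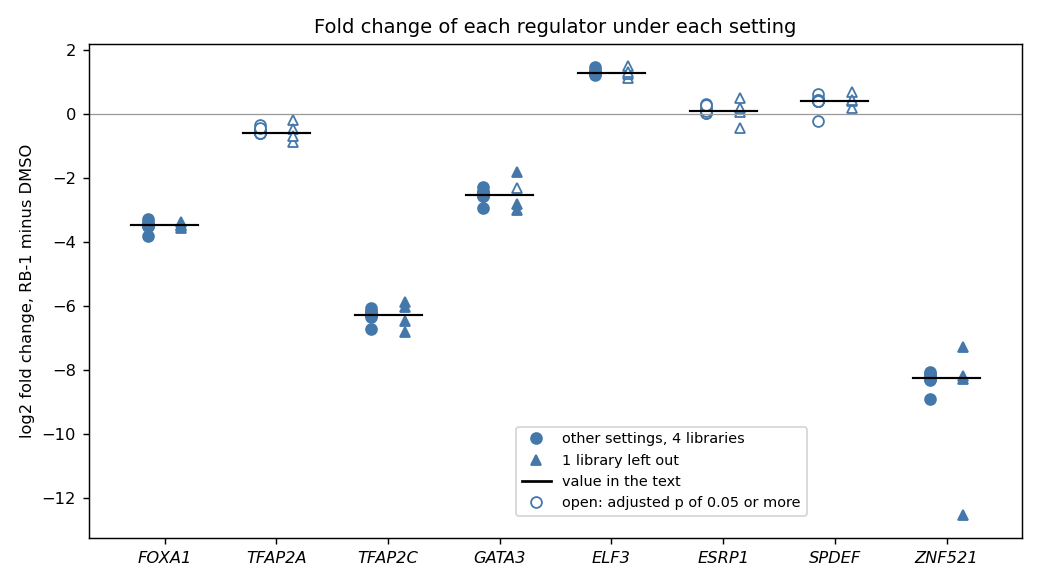
Log2 fold change of each tested regulator under every setting. Circles use all 4 libraries with other scalings, filters, tools or corrections, triangles leave out 1 library, the black line is the value in the text, and open symbols have an adjusted p of 0.05 or more. ELF3 is open in all 4 fits that leave out a library, and the lowest triangle of ZNF521 (-12.54) is a fit whose lone RB-1 library has 0 counts, so that its size depends on the prior count.

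Promoter sequence was looked up for all 9 genes in a RefSeq table (GRCh38.p14), which gave windows for 5: FOXA1, GATA3, SPDEF, ELF3 and TFAP2A. TFAP2C, ZNF521, GRHL2 and ESRP1 had no entry. Of the 5 with windows, FOXA1 and GATA3 were picked for printing because they were lower together in RB-1, and SPDEF because it was not. The 3 stretches printed lie directly upstream of annotated starts. Each is the part of a window of 250 bases that lies before the first annotated exon base, at chr14:37595349-37595499 (minus strand) for FOXA1, chr10:8054438-8054652 (plus strand) for GATA3 and chr6:34556334-34556579 (minus strand) for SPDEF, written 5′ to 3′. Capitals mark an AP-2 match in GATA3 and an ETS match in SPDEF.
FOXA1: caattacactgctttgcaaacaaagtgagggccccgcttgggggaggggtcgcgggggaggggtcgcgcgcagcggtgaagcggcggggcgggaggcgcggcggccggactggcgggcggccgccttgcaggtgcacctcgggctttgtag
GATA3: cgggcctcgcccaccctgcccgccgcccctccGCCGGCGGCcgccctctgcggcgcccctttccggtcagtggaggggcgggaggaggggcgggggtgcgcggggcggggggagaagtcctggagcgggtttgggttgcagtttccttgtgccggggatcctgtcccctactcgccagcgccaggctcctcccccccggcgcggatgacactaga
SPDEF: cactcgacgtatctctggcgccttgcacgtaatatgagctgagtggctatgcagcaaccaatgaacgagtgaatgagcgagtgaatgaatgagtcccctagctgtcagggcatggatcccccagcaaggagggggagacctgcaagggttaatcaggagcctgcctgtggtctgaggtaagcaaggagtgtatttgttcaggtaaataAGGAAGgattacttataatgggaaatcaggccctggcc
The motifs of the regulators' own families were searched on both strands. They were GCCNNNGGC for AP-2, TGTTTAC for forkhead factors, AGATAA for GATA factors, AGGAAG for ETS factors and AACCGGTT for grainyhead factors. Among 35116 promoter windows of the same length, 19.8%, 2.98%, 9.17%, 28.7% and 0.117% held them. The FOXA1 window held none of the 5. Distances below are counted to the RefSeq start, which follows the last base of the full window and so lies downstream of the printed stretch. The GATA3 window held 1 AP-2 match, beginning 218 bases before the RefSeq start, and 3 of the 6 GATA3 windows in the table held one. The SPDEF window held 1 ETS match, beginning 42 bases before the RefSeq start, and 1 of the 2 TFAP2A windows held 3 ETS matches. A GATA3 window that is not printed also held 1 ETS match, beginning 9 bases before its RefSeq start. The ELF3 window, which ends at an annotated start and is not printed, held none of the 5 motifs. A match is a description of letters, and no binding was measured here.

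Other genes of the same families were examined next, since a paralogue can carry the same binding domain. Of 16 paralogues, 8 passed the count filter. EHF, an epithelial ETS factor of the same subfamily as ELF3, was higher in RB-1: its CPM was 2.03 and 1.31 in DMSO and 5.30 and 7.13 in RB-1, a log2 fold change of 1.89 ± 0.39 (SE; adjusted p = 0.00636, edgeR). Leaving out DMSO replicate 2 ended this call (1.63, adjusted p = 0.0517). The other 7 tested paralogues did not pass, while 28.8% of all tested genes were called. FOXA2, a forkhead factor of endoderm, was present at 72.4 and 115 CPM in DMSO and 81.2 and 79.6 CPM in RB-1, well above FOXA1 on the scale per kilobase too (36.0 against 1.84 CPM per kilobase in DMSO). Its log2 fold change was -0.22, and with the length and GC correction it was -0.76 and called lower (adjusted p = 0.0401, edgeR). FOXA3 had 0.201 and 0.519 CPM in DMSO and 1.46 and 0.908 CPM in RB-1 (log2 fold change 1.72, adjusted p = 0.0513, edgeR), and without DMSO replicate 2 it passed (2.56, adjusted p = 0.0479). GATA2 had a log2 fold change of 0.22 and GATA6 of -0.06, whereas GATA3 had -2.54. ESRP2, the second epithelial splicing regulator, had 0.01, TFAP2E 0.85 and GRHL1 -1.45. Signs this close to 0 turned with the setting: GATA2 was -0.12 with the length and GC correction, GATA6 was 0.17 with library totals alone, and ESRP2 was -0.19 with the correction.

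**Figure D4:**
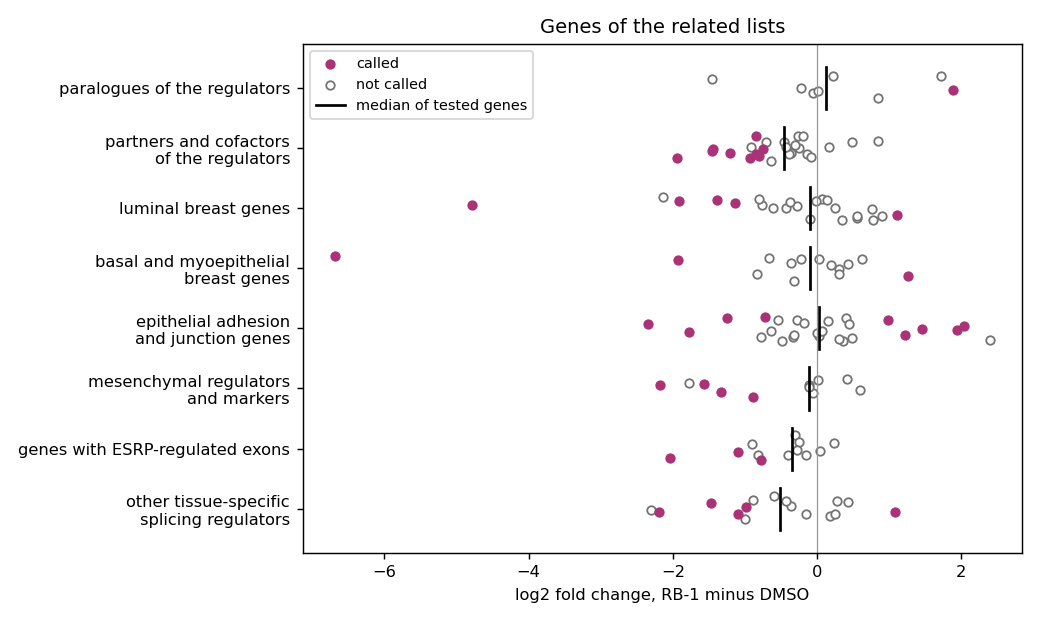
Log2 fold change, RB-1 minus DMSO, of every tested gene in 8 lists related to the regulators. Filled points were called and open points were not, and black bars are list medians. The leftmost point of the basal list is TRIM29, whose RB-1 libraries are at 0, and CLDN4 (1.93) and CLDN7 (2.03) lie to the right among the junction genes.

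Partners and cofactors of these factors include the co-repressors of the TLE and FOG families, the CITED and KCTD proteins that bind AP-2, the acetyltransferases CREBBP and EP300, the methyltransferases KMT2C and KMT2D, and the NuRD complex. Of 25 tested, 9 were lower in RB-1, beside 16.1% of all tested genes, and the other 16 did not pass. The median log2 fold change was -0.46, beside 0.01 over all tested genes and -0.42 over genes with more than 7498 exon bases. The part of length in the list median was not tested. CREBBP fell from 202 and 352 CPM to 62.6 and 81.5 CPM (log2 fold change -1.94 ± 0.31 SE, adjusted p = 0.00210, edgeR). KMT2C changed by -1.46 ± 0.30 (adjusted p = 0.00685) and EP300 by -1.45 ± 0.32 (adjusted p = 0.00885). These genes are long, with 15492, 20114 and 12500 exon bases, all above the 7498 bases beyond which the median was -0.42. With the length and GC correction CREBBP was at -1.54 and EP300 at -1.13, both still called, and KMT2C at -0.61 (adjusted p = 0.0594, edgeR) was not. EP300 was not called without DMSO replicate 2 (-0.97) or RB-1 replicate 1 (-1.20). The number of the list called lower was 5 without DMSO replicate 1 and 2 when DMSO replicate 2 or RB-1 replicate 1 was left out.

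Among luminal breast genes, 23 of 30 were tested, with a median of -0.10. Of these, 1 was higher and 4 were lower, beside 12.8% and 16.1% of all tested genes. MYB, a transcription factor linked to oestrogen receptor signalling, fell by 1.39 on the log2 scale, and PGR, the progesterone receptor, fell by 1.91 from a mean of 1.62 CPM. Neither passed without DMSO replicate 2 (-1.18 and -1.75) or RB-1 replicate 1 (-1.30 and -1.59), and PGR did not pass with the length and GC correction (-1.04). ERBB3, a receptor tyrosine kinase, was higher by 1.10 ± 0.36 (adjusted p = 0.0406, edgeR). It did not pass with any 1 library left out (0.79 to 1.54, lowest adjusted p = 0.0530). The number of luminal genes called lower was 1 when DMSO replicate 2 or RB-1 replicate 1 was left out.

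Among basal and myoepithelial genes, 14 of 23 were tested, with a median of -0.10. Here 1 was higher and 2 were lower, beside 12.8% and 16.1% of all tested genes. The oxytocin receptor OXTR fell from 5.50 and 5.92 CPM to 1.51 and 1.5 CPM (log2 fold change -1.92 ± 0.35 SE, adjusted p = 0.00413, edgeR). TRIM29 had 11 and 13 counts in DMSO and 0 and 0 in RB-1, at least 8.89-fold lower against a floor of 3 counts over the RB-1 group. TRIM29 did not pass the count filter when either DMSO library was left out, and it was not called without RB-1 replicate 1. ACTA2, smooth muscle actin, was higher by 1.26 ± 0.38 (adjusted p = 0.0308, edgeR), and it shares 17.3% of its exon bases with an antisense gene and 12.8% with FAS. ACTA2 was not called without DMSO replicate 1 (0.90), RB-1 replicate 1 (1.30) or RB-1 replicate 2 (1.22), nor with the length and GC correction (0.81). Leaving out DMSO replicate 2 or RB-1 replicate 1 left 1 basal gene called lower.

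Many epithelial adhesion and junction genes are under GRHL2 and related factors in epithelia. Of 27 tested, 5 were higher, 4 were lower and 18 did not pass, with a median of 0.02. Over all tested genes 12.8% were called higher and 16.1% lower, so these counts are near the background. Of the claudins, the strand proteins of tight junctions, CLDN1, CLDN4 and CLDN7 were called higher, and CLDN3 was not called (log2 fold change 0.39, and -0.24 with the length and GC correction). CLDN4 went from 50.5 and 46.1 CPM to 219 and 150 CPM (log2 fold change 1.93 ± 0.27 SE, adjusted p = 0.00104, edgeR), CLDN7 by 2.03 ± 0.32 and CLDN1 by 1.45 ± 0.28. CLDN7 shares 10.8% of its exon bases with another gene. The scaffold TJP1 fell from 189 and 211 CPM to 33.5 and 45.2 CPM (-2.34 ± 0.26 SE, adjusted p = 0.000421, edgeR) and desmoplakin (DSP) by -1.77 ± 0.25. CGN, the cingulin gene, was at -1.25 ± 0.35. CLDN1, CLDN4, CLDN7, TJP1 and DSP kept their calls in every setting. CGN did not with library totals alone (-1.05) or when RB-1 replicate 1 (-1.03), DMSO replicate 1 (-1.29) or DMSO replicate 2 (-1.19) was left out. CLDN1, CLDN4 and CLDN7 have 3663, 4702 and 2492 exon bases, and TJP1 and DSP have 11265 and 10093, both above 7498. With the length and GC correction CLDN4 was at 1.61, CLDN7 at 1.45, CLDN1 at 1.54, TJP1 at -1.77 and DSP at -1.44. The number of junction genes called higher was 3 without DMSO replicate 2. The number lower was 2 when either DMSO library or RB-1 replicate 1 was left out.

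Of 11 tested mesenchymal regulators and markers, 4 were lower in RB-1, beside 16.1% of all tested genes, and the other 7 did not pass. The list median was -0.12. ZEB1, a repressor of epithelial genes including the ESRP factors, fell from 62.6 and 64.1 CPM to 13.6 and 14.2 CPM (log2 fold change -2.18 ± 0.28 SE, adjusted p = 0.000704, edgeR). With the length and GC correction ZEB1 was at -1.56 and still called. ZEB2 was at -1.34 ± 0.33, and at -0.20 with the correction. ZEB2 was not called once RB-1 replicate 1 (-0.997), DMSO replicate 1 (-1.38) or DMSO replicate 2 (-1.27) was left out. CAV1, the caveolin gene, was at -0.90 ± 0.22, and was not called without the same libraries (-0.86, -0.86 and -0.91) or with library totals alone (-0.70). VIM (0.41, with 12.4% of its exon bases shared with the antisense gene VIM-AS1), AXL (-0.05), MSN (-0.12), CD44 (-0.30) and EGFR (-0.67) of the cell line markers did not pass. EGFR had an adjusted p of 0.0517 by edgeR. Leaving out RB-1 replicate 2 brought it past the threshold (-0.86, adjusted p = 0.0492). It also passed on all 4 libraries with the strict filter (adjusted p = 0.0467), limma-voom (0.0436) and the replicate block (0.0435). With the length and GC correction it was at -0.20. Leaving out DMSO replicate 2 or RB-1 replicate 1 left 1 mesenchymal gene called lower.

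For the splicing side, 2 lists were examined. Of 12 tested genes whose exons ESRP proteins are known to regulate, 3 were lower in total counts and the other 9 did not pass. The list median was -0.35, and 16.1% of all tested genes were lower. SLK, a kinase of the cytoskeleton, fell from 170 and 124 CPM to 29.4 and 42.0 CPM (log2 fold change -2.04 ± 0.29 SE, adjusted p = 0.00112, edgeR). EPB41L5 was at -1.09 ± 0.34 and ARHGEF11 at -0.78 ± 0.24, and neither was called with any 1 library left out (ranges -1.35 to -0.75 and -0.80 to -0.73), with upper-quartile factors or with library totals alone. EPB41L5 was also not called with the length and GC correction (-0.53). All 3 have over 7498 exon bases. The number called lower was 1 when either DMSO library or RB-1 replicate 1 was left out. The table counts genes, not exons, so which exons were used was not analysed here.

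Of 16 other tested tissue-specific splicing regulators, 1 was higher and 4 were lower, beside 12.8% and 16.1% of all tested genes. The list median was -0.51. MBNL2, a muscleblind protein, fell from 85.6 and 64.5 CPM to 14.4 and 18.5 CPM (log2 fold change -2.19 ± 0.30 SE, adjusted p = 0.000953, edgeR). MBNL1 changed by -1.47 ± 0.28, with 11.4% of its exon bases shared with an antisense gene, and was at -0.81 with the length and GC correction, where it was still called. PTBP1, the polypyrimidine tract binding protein, changed by -1.09 ± 0.24, and was not called without DMSO replicate 2 (adjusted p = 0.0525, edgeR) or RB-1 replicate 1 (-0.91, adjusted p = 0.0657). RBM47, an epithelial RNA-binding protein, was higher by 1.08 ± 0.34 (adjusted p = 0.0358, edgeR) and was not called with any 1 library left out (0.97 to 1.23). The number called lower was 2 without DMSO replicate 2, while leaving out RB-1 replicate 2 gave 7. ESRP1 and ESRP2 themselves had log2 fold changes of 0.11 and 0.01.

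Markers of other cell types were low, apart from CD68. CD3E was at 0 counts in all 4 libraries, as were DCN and ADIPOQ. The summed level of 6 immune markers was 161 and 341 CPM in DMSO and 220 and 201 CPM in RB-1, nearly all of it CD68, which shares 81.7% of its exon bases with an overlapping transcript, and PTPRC had at most 0.630 CPM. PTPRC was called lower (adjusted p = 0.0469, edgeR), but not when either DMSO library or RB-1 replicate 2 was left out (log2 fold change -2.52, -3.16 and -1.93). With all 4 libraries PTPRC was also not called by DESeq2 (adjusted p = 0.145), with the length and GC correction, with no filter, in edgeR's legacy fit, or under upper-quartile or total-count scaling. The 5 endothelial markers summed to 8.21 to 14.2 CPM over the 4 libraries. TIE1, at a mean of 1.37 CPM in DMSO, was called lower (adjusted p = 0.0482, edgeR), but not when either DMSO library or RB-1 replicate 1 was left out (log2 fold change -1.50, -1.73 and -1.09). With all 4 libraries TIE1 was also not called by DESeq2 (adjusted p = 0.128), with no filter, in the legacy fit, or under either of these scalings. The 9 fibroblast and adipocyte markers summed to 11.1 and 10.2 CPM in DMSO and 6.12 and 6.51 CPM in RB-1, and the 3 that were tested did not pass.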

How the data were processed

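RNA of 2 DMSO and 2 RB-1 samples of MDA-MB-231 was made into libraries from 1.4 ug of total RNA with an mRNA kit, per the labels' protocols. The authors deposited raw gene counts with no normalisation, as the whole-number values show. The aligner, the counting tool and any strand setting were not given in the sources used here. Mouse builds, GRCm38 and mm10, are listed in the submitters' processing notes, while the gene IDs are human, so the build of the counts is not settled and no gene coordinates are given; promoter windows carry the build of their RefSeq table. Symbols matched 20148 of 20263 IDs. Exon lengths come from GENCODE v29, and 99.9% of tested genes had a length and GC content.

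Genes were kept by filterByExpr (edgeR 4.0.16, R 4.3.3). The difference RB-1 minus DMSO was tested with TMM factors and edgeR's robust quasi-likelihood F test, two-sided, with Benjamini-Hochberg adjustment over all 13612 tested genes and a threshold of 0.05. The common biological coefficient of variation was 0.251. Counts of replicates differed beyond sampling noise (chi-square per degree of freedom 257 in DMSO and 128 in RB-1), so no pair was counted as 1 library deposited more than once. The fit was run on simulated data in which few genes changed, by modest amounts, and no length trend was built in. That run does not cover changes as widespread or as large as those seen here.

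The 9 regulators and the 13 gene lists beside them were chosen with earlier results of these data known. The genes named are the 9 regulators, all cell line markers, tested paralogues, the 3 called genes of smallest p in each direction of every other list, and the 2 genes closest in pattern to each regulator; further markers of other cell types were named after their values were seen, and 2 genes of the lists are not reported here. Alternatives were other scalings (RLE, upper-quartile, totals alone), no filter and a stricter one (CPM of at least 1 in every library), DESeq2 1.42.0, limma-voom (limma 3.58.1), a replicate block, a length and GC correction, each library left out, and edgeR's legacy fit, the last added after seeing the data.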

Additional observations from a re-analysis of the deposited data

How the results depend on the processing

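The directions of ZNF521, TFAP2C, FOXA1, GATA3, ELF3 and TFAP2A were the same in every setting in which they were fitted. Upper-quartile factors moved the median log2 fold change of all genes by 0.11 and gave 2171 genes higher and 1830 lower, while library totals alone moved it by 0.20 and gave 2059 and 1400 (59.5% of calls higher, against 44.2%). The strict filter removed FOXA1, TFAP2C and ZNF521 before testing, leaving 1 regulator called lower, and gave 2 luminal genes lower and 2 higher. With library totals alone 3 partners, 2 junction genes and 1 gene with ESRP-regulated exons were lower, and 3 luminal genes, 2 basal genes and 2 paralogues were higher. Upper-quartile factors gave 1 lower gene with ESRP-regulated exons, 3 higher luminal genes, 2 higher basal genes and 2 higher paralogues. The number of luminal genes higher was 2 with DESeq2 and 0 with no filter in edgeR, where ERBB3 had an adjusted p of 0.0502. With the length and GC correction 3 luminal genes and 1 mesenchymal gene were higher and 1 paralogue (FOXA2) was lower, and SPDEF (-0.21), CLDN3 (-0.24), ESRP2 (-0.19), GATA2 (-0.12) and CD44 (0.19) changed sign. MSN (0.0941), GATA6 (0.17) and AXL (0.14) changed sign with totals alone, GATA6 (0.0372) and AXL (0.0478) with upper-quartile factors, and GATA6 with limma-voom (0.0162). The cause of these moves was not tested.

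Replicate numbers are shared by the groups. The labels do not say that the numbers mark a shared culture or day, so same-numbered libraries were not taken as pairs. Their deviations correlated at -0.0959 over genes. With 2 libraries per group the other pairing would only flip the sign, so this value cannot decide on pairing. With the replicate block 1741 genes were higher and 2314 lower, with 2 luminal genes and 2 paralogues higher, 4 basal genes and 5 genes with ESRP-regulated exons lower, and GATA6 at 0.0115. No crossed pairing was fitted.

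With 1 library left out, and the lone library of its group assumed to vary like the others, 522 to 1955 genes were higher and 1065 to 2443 lower. The number of regulators higher was 0 in all 4 fits by edgeR and the number lower 3 to 4. ELF3 ran from 1.11 to 1.49, GATA3 from -3.01 to -1.81, ESRP1 from -0.43 to 0.50, AXL from -0.20 to 0.0803, ESRP2 from -0.25 to 0.36, FOXA2 from -0.52 to 0.17, GATA6 from -0.44 to 0.49 and MSN from -0.30 to 0.0894. Higher and lower calls numbered 0 to 1 and 1 to 3 for basal genes, 3 to 5 and 2 to 4 for junction genes, 0 and 1 to 5 for luminal genes, and 0 and 2 to 7 for splicing regulators. Lower calls numbered 2 to 7 for partners, 1 to 3 for mesenchymal genes and 1 to 3 for genes with ESRP-regulated exons. With 4 libraries, depth limits TFAP2C and ZNF521 in RB-1, where 6 and 5 counts remained.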

Other observations

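For each tested regulator, the genes whose pattern over the 4 libraries lay closest were found among 11453 genes whose mean count was 100 or more, by the root mean square difference of centred log2 (CPM + 0.1). With 4 libraries in 2 groups this likeness is mostly the difference between groups where that difference is large. For ESRP1 (log2 fold change 0.11) it is mostly the split between the RB-1 libraries. For TFAP2A it also follows the split between the DMSO libraries. The likeness says nothing of shared control. FOXA1 lay closest to SAMD9L (0.0687), an interferon-inducible gene, and to the proliferation marker MKI67 (0.109). MKI67 had 1469 and 1525 CPM in DMSO and 171 and 175 CPM in RB-1. GATA3 lay closest to LDOC1 (0.131) and BMP4 (0.162), a ligand of the bone morphogenetic protein pathway, which also had its highest level in DMSO replicate 2 (81.3 and 240.0 CPM in DMSO, 24.0 and 35.8 CPM in RB-1). TFAP2C lay closest to CORO7-PAM16 (0.250), a read-through gene whose counts may be shared with its neighbours, and to the cancer-testis gene SPANXB1 (0.277). ZNF521 lay closest to SPANXA1 (0.452) and SPANXA2 (0.460), near-identical copies whose counts are uncertain and which had 0 counts in both RB-1 libraries. ELF3 lay closest to L3HYPDH (0.0173) and FDXACB1 (0.0184), TFAP2A to RERE (0.0323) and ANKDD1A (0.0387), SPDEF to SLC9A8 (0.0291) and RHBDF2 (0.0302), and ESRP1 to ABI2 (0.0388) and FAN1 (0.0495).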
